A study of Mus musculus with 6 samples.

Results

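Elastic fibre and microfibril genes were followed in mouse heart RNA measured with Affymetrix whole-genome arrays. The list held 10 genes: elastin (Eln), the fibrillins Fbn1 and Fbn2, the fibulins Fbln1, Fbln2 and Fbln5, the microfibril-associated proteins Mfap2, Mfap4 and Mfap5, and the latent TGF-beta binding protein Ltbp2. Every probe set that the platform annotation gives to exactly 1 of these genes was taken, which gave 17 of 45101 probe sets for 9 genes. Fbn1 had no probe set named by that annotation and was not analysed here. The series held 6 arrays in 2 groups, 3 from C57BL/6 mice that overexpress hAT1R, the human type 1 receptor for angiotensin II, and 3 from normal C57BL/6 mice. The design text gives the animals as matched for age and sex, and neither the ages, the promoter of the transgene nor the number of animals behind an array is given in the sources used here. Nothing in the labels says that the arrays came from separate animals, so the p-values measure only the spread between these samples, which may in part be technical. The number of arrays limits the precision.

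Elastic fibres have a core of elastin, made from soluble tropoelastin that lysyl oxidases crosslink, laid down on a scaffold of microfibrils built from fibrillin. Fibulins, microfibril-associated proteins and latent TGF-beta binding proteins sit on the scaffold or at its border with the core, and several of them guide tropoelastin onto it. In the heart such fibres lie in the walls of the large vessels and coronary arteries, in the valves, under the endocardium and, thinly, between the muscle fibres.

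The groups were taken from the sample titles, which the instrument records did not match. The chip lot field held the typed word "control" for each array titled transgenic and "transgene" for each array titled non-transgenic, so on all 6 arrays that word was the other group's. Going by the typed words would turn the sign of every difference below. No probe set was annotated to the human receptor, so the transgene could not check the labels. Xist, an RNA of female cells, exceeded log2 6 on labelled transgenic arrays 1 and 3 and on non-transgenic array 2. Each group thus mixed arrays high and low in Xist, in unequal numbers. Same-numbered arrays of the groups differed in Xist, although the design text gives the animals as matched for sex. Fluidics station 2 washed every labelled transgenic array and also non-transgenic array 1, while station 3 washed non-transgenic arrays 2 and 3. The scanner read the labelled transgenic arrays first and the non-transgenic arrays after them, and the effect of that order cannot be told apart from the group. The 7 cardiomyocyte markers lay between log2 13.26 and 16.05 on every array, as the labelled tissue would have them.

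None of the elastic fibre probe sets passed the test, and most of the brighter ones were higher in the labelled transgenic hearts. Probe sets were tested if they averaged more than log2 3.29 across the arrays, the median of all probe sets, and 11 of the 17 were, from 7 of the 9 genes. In limma's moderated test with Benjamini-Hochberg adjustment over 22518 probe sets, 0 of the 11 passed at an adjusted p under 0.05, against 0.218% of all tested probe sets (with 0.178% passing higher and 0.04% passing lower). Before adjustment, 3 of the 11 had p under 0.05, all higher (the main probe sets of Fbln1, Fbln2 and Fbln5), where 16.4% of all tested probe sets reached that level, 9.41% higher and 6.98% lower. That count of 3 was 1 without labelled transgenic array 3 or without non-transgenic array 1 or 3, and 7 without non-transgenic array 2. The log2 change was above 0 at 10 of the 11, against 52.5% of all tested, and at 5 of the 11 all labelled transgenic values lay above all non-transgenic values, against 13.2% of all tested, while the reverse held for none of the 11 and for 9.78% of all tested. The median change of the 11 was 0.35, beside 0.01 over all tested probe sets. It was 0.21 without labelled transgenic array 1 and 0.17 when all 17 probe sets were taken with no filter on dim ones. Probe sets of 1 gene share a transcript, and by gene, taking the brightest probe set of each, 6 of 7 changes were above 0.

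**Figure D1:**
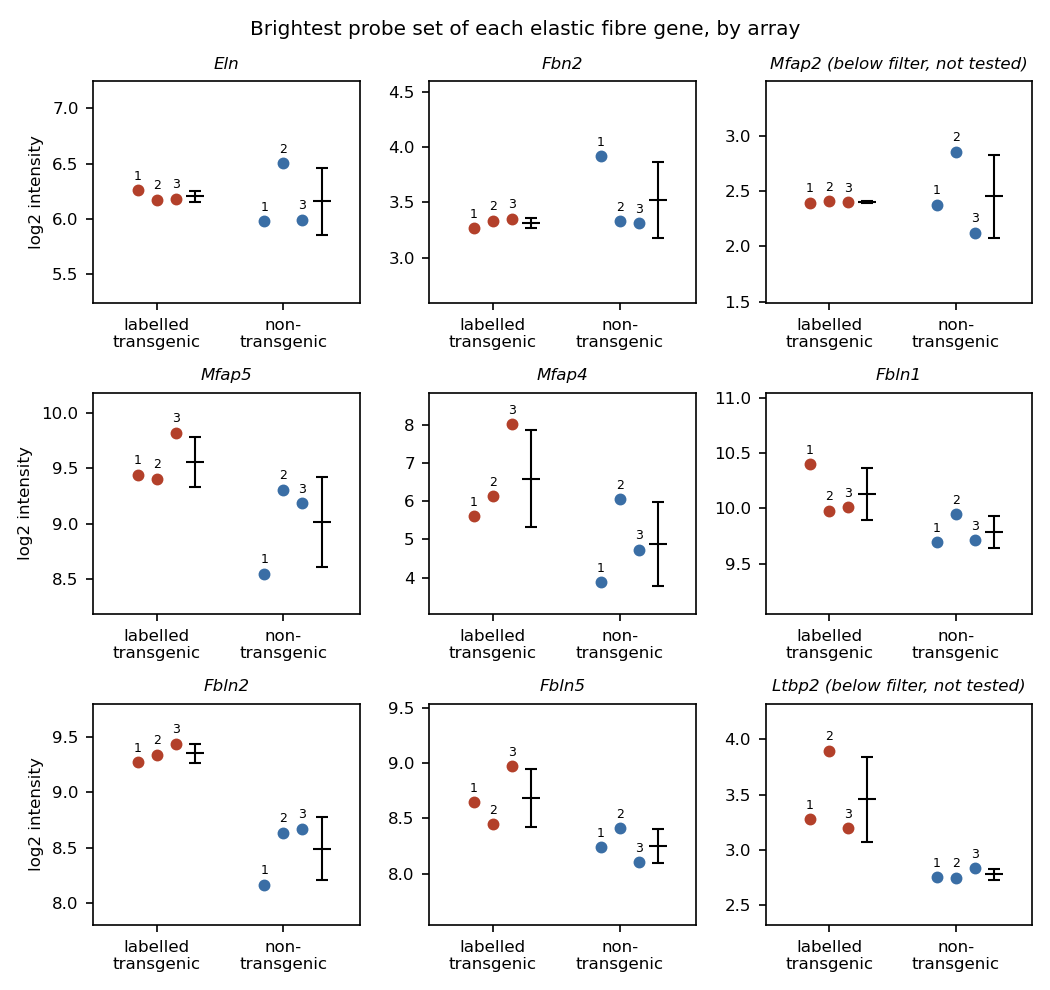
Log2 intensity (vertical axis) of the brightest probe set of each of 9 elastic fibre genes, with 1 numbered point per array and the mean ± SD of 3 arrays as bars. The Fbln2, Fbln5, Fbln1 and Mfap5 points of the labelled transgenic arrays all lie above the non-transgenic ones, as do those of Ltbp2, which lay below the brightness filter, while the Eln and Fbn2 points overlap; each panel has its own range and levels are not comparable between panels.

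Elastin, the core protein, differed between the groups by less than the spread among arrays. Its brighter probe set (1420855_at) was at log2 6.26, 6.17 and 6.18 on labelled transgenic arrays 1, 2 and 3, against 5.98, 6.50 and 5.99 on non-transgenic arrays 1, 2 and 3. The labelled transgenic values sit inside the range of the non-transgenic ones, which vary more. The change of Eln was 0.05 ± 0.15 (SE, n = 3 each, adjusted p = 0.917 in limma), with a 95% interval from -0.32 to 0.42, so these arrays leave the size and the sign of an Eln difference undetermined within it. The sign of the Eln change turned with high or low Xist as a block, with the Xist level as a term, and without non-transgenic array 1 or 3, and with the fluidics station as a block it was 0.23. The other Eln probe set was dim, at 2.57 ± 0.20 on labelled transgenic arrays and 2.48 ± 0.01 on non-transgenic arrays (SD, n = 3), and was not tested.

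Of the fibrillins, Fbn2, which is made mainly in embryonic tissue, was measured just above the filter. Its brighter probe set was at log2 3.27, 3.33 and 3.35 on labelled transgenic arrays, against 3.92, 3.33 and 3.31 on non-transgenic arrays. Non-transgenic array 1 alone stood above the rest, which lay close together. The change was -0.20 ± 0.17 (adjusted p = 0.614 in limma, 95% interval -0.62 to 0.22), -0.002 without non-transgenic array 1, and -0.60 with the fluidics station as a block. The second Fbn2 probe set was at 2.29 on labelled transgenic and 2.30 on non-transgenic arrays and was not tested.

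Among the small proteins bound to microfibrils, Mfap5 was measured well and Mfap2 was not. The brighter Mfap5 probe set (1418454_at) was at log2 9.44, 9.41 and 9.82 on labelled transgenic arrays, against 8.55, 9.31 and 9.18 on non-transgenic arrays. The groups did not overlap, but the closest pair of values lay only a little apart and non-transgenic array 1 was far below the others in its group. The change of this Mfap5 probe set was 0.54 ± 0.22 (1.46-fold, adjusted p = 0.307 in limma, 95% interval -0.003 to 1.09). It was 0.31 without non-transgenic array 1 and 1.01 with the fluidics station as a block. The second Mfap5 probe set (1449082_at) was at 6.98, 7.0 and 7.02 on labelled transgenic arrays, against 5.38, 7.04 and 6.49 on non-transgenic arrays. Here the groups overlapped, since non-transgenic array 2 was the highest of all. Its change was 0.70 ± 0.40 (adjusted p = 0.445 in limma), with 0.24 left without non-transgenic array 1 and 1.62 with the station as a block. Both Mfap2 probe sets lay below the filter, at 2.40 and 1.84 on labelled transgenic arrays and at 2.45 and 1.98 on non-transgenic arrays.

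Mfap4, a fibrinogen-related glycoprotein that binds elastin and fibrillin, had the largest change and the largest spread within groups of the tested list members. Its single probe set was at log2 5.60, 6.12 and 8.01 on labelled transgenic arrays, against 3.87, 6.05 and 4.73 on non-transgenic arrays. Labelled transgenic array 3 stood highest and non-transgenic array 1 lowest, and non-transgenic array 2 lay above labelled transgenic array 1. The change was 1.69 ± 0.78 (3.24-fold, adjusted p = 0.352 in limma), and its 95% interval, from -0.21 to 3.60, runs from a small fall to a change of 12.1-fold. The mean was 6.58 ± 1.27 on labelled transgenic arrays and 4.89 ± 1.10 on non-transgenic arrays (SD, n = 3). The spread of Mfap4 within groups was 1.19 on the log2 scale, and 99.8% of all tested probe sets had a smaller one. With single arrays left out the change ran from 0.98 without labelled transgenic array 3 to 2.28, and blocking on fluidics station gave 2.71.

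The fibulins bridge tropoelastin, fibrillin and basement membranes. Of these, Fbln2 had the most separated values, and it had the smallest p of the list. Its main probe set (1423407_a_at) was at log2 9.27, 9.34 and 9.44 on labelled transgenic arrays, against 8.16, 8.63 and 8.67 on non-transgenic arrays. All labelled transgenic values lay well above all non-transgenic ones, by more than the spread inside either group. The change was 0.86 ± 0.15, or 1.82-fold with a 95% interval from 1.41-fold to 2.34-fold, at an adjusted p of 0.0805 in limma. Over the alternatives that adjusted p ran from 0.0534 to 0.253, so Fbln2 did not pass under any of them. Blocking on fluidics station gave a change of 1.19, and it was 0.70 without non-transgenic array 1. The other Fbln2 probe set (1438375_at) was dim, at 3.60, 3.51 and 3.75 on labelled transgenic arrays and 3.44, 3.42 and 3.49 on non-transgenic arrays. It did not overlap between groups either, and its change was 0.17 ± 0.08 (adjusted p = 0.377 in limma), or 0.10 without labelled transgenic array 3.

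Fbln5, which binds tropoelastin and is needed in mice for elastic fibres to form, was at log2 8.65, 8.45 and 8.97 on labelled transgenic arrays, against 8.24, 8.41 and 8.11 on non-transgenic arrays. The groups did not overlap, with labelled transgenic array 2 only just above non-transgenic array 2. The change was 0.43 ± 0.15 (1.35-fold, adjusted p = 0.251 in limma, 95% interval 0.06 to 0.81). It was nearly the same with the fluidics station as a block, at 0.45, and without non-transgenic array 1, at 0.43. The second Fbln5 probe set was below the filter, at 2.05 on labelled transgenic and 2.04 on non-transgenic arrays.

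Fbln1, found in elastic fibre cores and basement membranes, had 3 tested probe sets. The brightest (1451119_a_at) was at log2 10.40, 9.98 and 10.01 on labelled transgenic arrays, against 9.69, 9.95 and 9.71 on non-transgenic arrays. The groups did not overlap, though labelled transgenic array 2 and non-transgenic array 2 were almost equal. Its change was 0.35 ± 0.14 (1.27-fold, adjusted p = 0.300 in limma, 95% interval 0.004 to 0.69), and 0.21 without labelled transgenic array 1. The other Fbln1 probe sets, at changes of 0.34 ± 0.20 and 0.14 ± 0.13, overlapped between groups (adjusted p = 0.472 and 0.636 in limma). Labelled transgenic array 1 was the highest array at all 3 Fbln1 probe sets, and without it the changes of these other probe sets were 0.14 at 1422540_at and 0.002 at 1439688_at.

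Ltbp2, a microfibril protein of the latent TGF-beta binding family that itself does not bind latent TGF-beta, lay just below the filter. Its single probe set was at log2 3.28, 3.90 and 3.19 on labelled transgenic arrays, against 2.75, 2.75 and 2.84 on non-transgenic arrays. The labelled transgenic values were all higher, and labelled transgenic array 2 stood above the others. The difference in means was 0.68, and when all 45037 probe sets were tested with no filter limma's adjusted p was 0.348. For this dim probe set the size of a difference is uncertain.

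**Figure D2:**
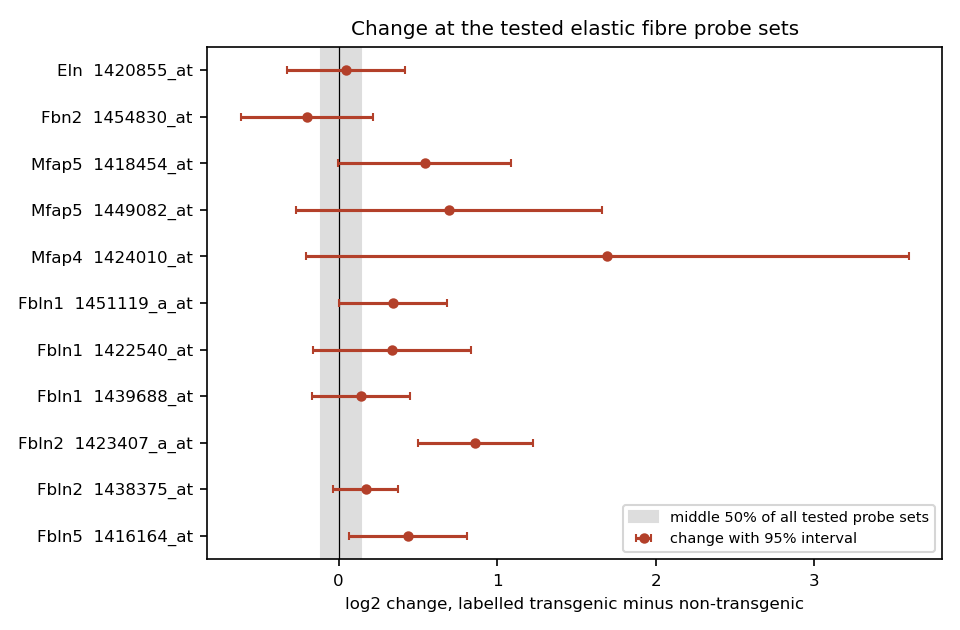
Log2 change, labelled transgenic minus non-transgenic (horizontal axis), with its 95% interval from limma for each of the 11 tested elastic fibre probe sets, and a grey band from -0.11 to 0.14 for the range between the quartiles of all tested probe sets. The Fbln2 probe set 1423407_a_at lies at 0.86 and farthest from 0 relative to its interval, and the Mfap4 interval is the widest.

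The elastic fibre genes also varied between arrays of the same group. Each gene's brightest tested probe set was set to its own mean over the 6 arrays, and the 7 genes were averaged. This mean deviation was 0.13, 0.12 and 0.55 on labelled transgenic arrays 1, 2 and 3, against -0.51, 0.03 and -0.32 on non-transgenic arrays 1, 2 and 3. All labelled transgenic arrays were above all non-transgenic ones, with array 3 the highest and non-transgenic array 1 the lowest. Non-transgenic array 1 was the lowest of the 6 arrays for 5 of the 7 genes, and labelled transgenic array 3 was the highest for 4. Mfap4 had the widest spread of the 7 within groups. The genes were not scaled to equal spread, so Mfap4 weighed most in the mean on labelled transgenic array 3 and non-transgenic array 1. Its values there were log2 8.01 and 3.87.

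**Figure D3:**
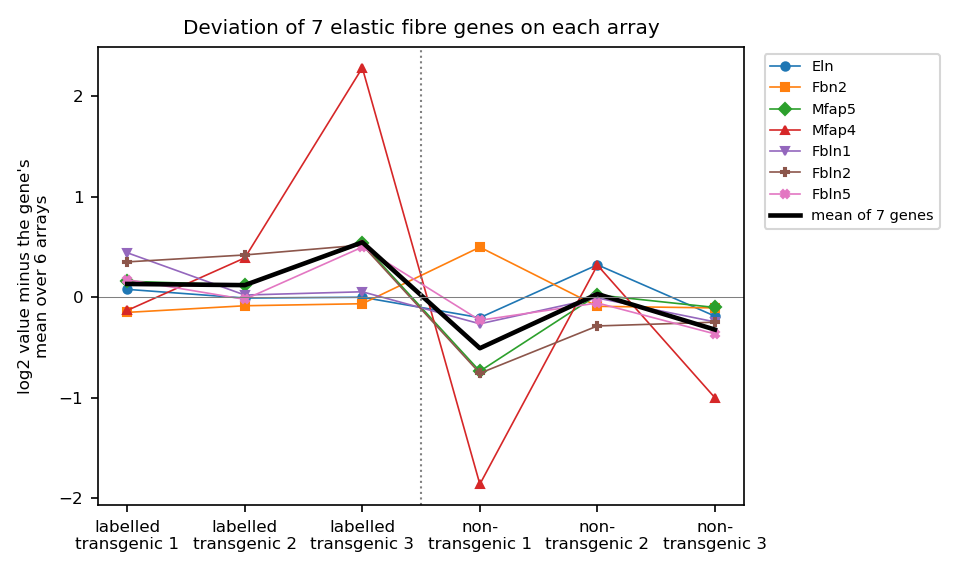
Log2 value minus the gene's own mean over 6 arrays (vertical axis) on each array (horizontal axis) for 7 elastic fibre genes, with their mean as a thick line. The mean is highest on labelled transgenic array 3, at 0.55, and lowest on non-transgenic array 1, at -0.51; Fbn2 runs the other way on non-transgenic array 1.

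Fluidics station and Xist were followed beside these values. With the station as a block the comparison sets the 3 labelled transgenic arrays against non-transgenic array 1 alone, since station 3 held 1 group, and the values within station 2 were the same as with the block. That non-transgenic array was the lowest array at 7 of the 11 probe sets and the highest at the tested Fbn2 probe set. The median change of the 11 probe sets was then 0.45. Within arrays high in Xist, 2 labelled transgenic against 1 non-transgenic, Fbln2 differed by 0.72, Fbln5 by 0.39, Fbln1 by 0.26, Mfap5 by 0.32, Mfap4 by 0.76 and Eln by -0.28 at their brightest probe sets. Within arrays low in Xist, 1 labelled transgenic against 2 non-transgenic, the differences were 0.92, 0.28, 0.28, 0.54, 1.82 and 0.19 in the same order. The fibulins and microfibril-associated proteins named here thus differed the same way in both subsets at these probe sets, and Eln did not; the second Mfap5 probe set was at -0.04 in the first subset and 1.07 in the other.

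Of the genes outside the list, those whose pattern over the 6 arrays was most like the mean deviation were St3gal2, Ctdspl, Stard3nl, Ctnnb1 and Smoc2, with Pearson r between 0.987 and 0.996. The r values are a description over 6 arrays that include the difference between groups, and among 11016 genes some are this alike by selection. Smoc2, a secreted calcium-binding matrix protein, was at 9.41 on labelled transgenic and 8.60 on non-transgenic arrays, and Ctnnb1, which encodes beta-catenin, at 13.19 and 13.03.

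Other genes of elastic fibre assembly and turnover were read from 5 lists, with 1 probe set a gene (the brightest) and limma refitted and adjusted over 11016 genes, of which 0.563% passed (0.418% higher, 0.145% lower). Before adjustment, at p under 0.05, 10.6% of those genes were higher and 7.88% lower, and 52.4% of all changes were above 0. Of the genes that fold, assemble and crosslink the fibre, 9 of 14 were tested and 0 passed in limma, with 3 higher and 2 lower at the unadjusted level, 5 changes above 0 and a median of 0.14. Emilin2, an elastin-interface glycoprotein, was at log2 7.70, 6.80 and 6.89 on labelled transgenic arrays, against 8.66, 8.78 and 8.73 on non-transgenic arrays. All labelled transgenic values were lower, and the change of -1.60 ± 0.24 was at adjusted p = 0.0592 in limma, while the alternatives gave adjusted p from 0.0275, which passes, to 0.263. Loxl1, a lysyl oxidase that crosslinks elastin together with Fbln5, was at 9.51, 9.86 and 9.96 on labelled transgenic arrays, against 9.13, 8.48 and 9.01 on non-transgenic arrays. The Loxl1 groups did not overlap, and its change was 0.90 ± 0.20 (adjusted p = 0.102 in limma). Efemp1, a further fibulin named here after its values were seen, was at a mean of 3.15 on labelled transgenic and 4.0 on non-transgenic arrays, a change of -0.85 ± 0.30 (adjusted p = 0.217 in limma) at a dim probe set.

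All 6 genes of the latent TGF-beta binding proteins and TGF-beta ligands were tested. None passed in limma, with 3 higher and 1 lower at the unadjusted level, 5 changes were above 0 and the median was 0.45. Tgfb2, a TGF-beta ligand, was at 7.61 ± 0.20 on labelled transgenic and 6.54 ± 0.23 on non-transgenic arrays (SD, n = 3), a change of 1.07 ± 0.15 (SE, adjusted p = 0.0538 in limma). As the mean of its 3 probe sets Tgfb2 passed, at 1.41 with adjusted p = 0.0232 in limma, the lowest of the alternatives. It did not pass in limma with high or low Xist as a block (0.149) or without non-transgenic array 1 (0.148). The adjusted p ran up to 0.220 over the alternatives. Ltbp1, which ties latent TGF-beta to microfibrils, was at 7.43, 7.22 and 6.93 on labelled transgenic arrays, against 8.25, 8.09 and 7.93 on non-transgenic arrays. It was lower on every labelled transgenic array, by 0.89 ± 0.15 (adjusted p = 0.0593 in limma), while its other tested probe set was at -0.14.

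Of the ADAMTS and ADAMTS-like proteins found on microfibrils, 5 of 9 were tested and 0 passed in limma, with 2 higher and 1 lower at the unadjusted level and a median change of 0.44. Adamtsl2, which binds fibrillin and Ltbp1, was at 7.74, 7.66 and 8.34 on labelled transgenic arrays, against 5.86, 7.44 and 6.67 on non-transgenic arrays. Its values did not overlap, with a change of 1.26 ± 0.40 (adjusted p = 0.188 in limma), 0.86 without non-transgenic array 1 and 2.05 with the fluidics station as a block. Adamts10, a protease that binds fibrillin, was at 0.48 ± 0.23 (adjusted p = 0.330 in limma), and its other probe set was at 0.02. The Adamts10 change was 0.22 without non-transgenic array 3 and 0.20 when blocked on fluidics station.

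The matrix partners and receptors of microfibrils were all above 0 among the 9 of 10 tested, with a median of 0.38. In limma 1 passed, higher, and at the unadjusted level 5 were higher and 0 lower. Itgb5, an integrin beta chain that pairs with the alpha-v chain, was at log2 10.74, 10.72 and 10.85 on labelled transgenic arrays, against 10.21, 10.17 and 10.22 on non-transgenic arrays. The 2 groups stood clearly apart, and the change of 0.57 ± 0.07 (1.48-fold) passed at adjusted p = 0.0458 in limma over genes. Its 3 other probe sets were between 0.60 and 0.71, its adjusted p was 0.0569 when adjusted over all probe sets, and it ran from 0.0310 to 0.184 over the alternatives, so the call is lost under some of them. Of the enzymes that can degrade elastin, 5 of 9 were tested, all 5 changes were above 0 with a median of 0.52, and 0 passed in limma (2 higher at an unadjusted p under 0.05). Ctsk, a cysteine protease, was at 5.56 ± 0.66 on labelled transgenic and 4.83 ± 0.20 on non-transgenic arrays, and Mmp2, a metalloproteinase, at 8.98 ± 0.49 and 8.38 ± 0.21 (SD, n = 3). The Ctsk change of 0.74 ± 0.32 (SE, adjusted p = 0.291 in limma) was 0.48 without labelled transgenic array 2, and the Mmp2 change of 0.60 ± 0.25 (SE, adjusted p = 0.273 in limma) was 0.32 without labelled transgenic array 3. The enzymes that were higher before adjustment were neither of these but the cysteine proteases Ctsl and Ctss, named here after their values were seen. Ctsl was at 12.68 ± 0.06 on labelled transgenic and 12.17 ± 0.06 on non-transgenic arrays, a change of 0.51 ± 0.07 (adjusted p = 0.0501 in limma, from 0.0365, which passes, to 0.464 over the alternatives), while its other probe set was at -0.12. Ctss was at 9.07 ± 0.21 on labelled transgenic and 8.55 ± 0.24 on non-transgenic arrays, a change of 0.52 ± 0.16 (adjusted p = 0.176 in limma). The elastases Mmp12, Mmp9, Mmp7 and Elane lay below the filter.

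**Figure D4:**
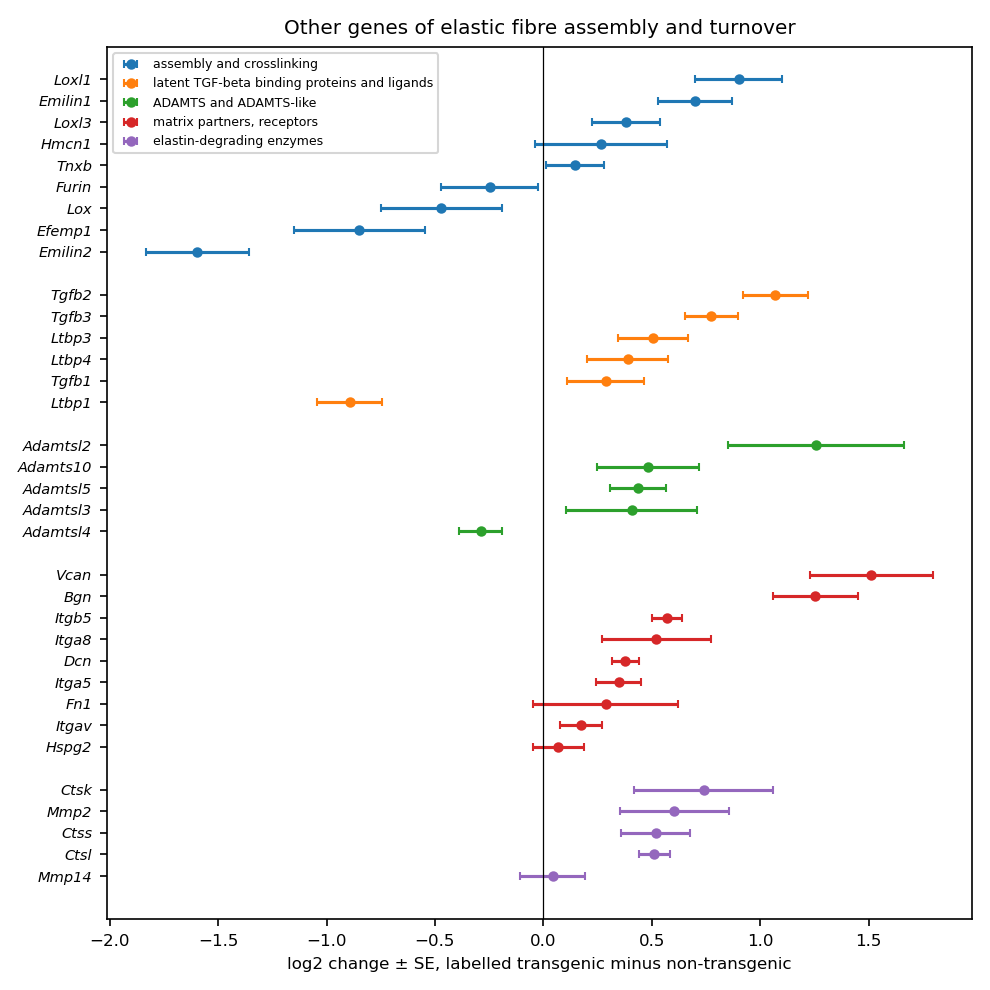
Log2 change, labelled transgenic minus non-transgenic, ± SE from limma (horizontal axis) for the tested genes of 5 lists on elastic fibre assembly and turnover, ordered by change within each list. Emilin2, at -1.60, is the farthest below 0 and Vcan, at 1.51, the farthest above.

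Markers of cell types were set beside these genes. In heart RNA, more cells of a type and more RNA per cell cannot be told apart. All 7 fibroblast markers were tested, 6 were above 0 with a median change of 0.68, and none passed in limma (5 higher at an unadjusted p under 0.05). Their summed linear intensity ran from 7518 to 11271 on labelled transgenic arrays, against 5400 to 7727 on non-transgenic arrays. Labelled transgenic array 3 was the highest and non-transgenic array 1 the lowest, the same extremes as for the mean deviation of the elastic fibre genes. Valve and chondrogenic markers, 6 of 7 tested, had 5 changes above 0, 2 of them at an unadjusted p under 0.05 and none passing in limma, and a median of 0.54, and their sum was 571 to 859 on labelled transgenic and 310 to 580 on non-transgenic arrays with the same 2 extreme arrays. Both sums overlapped between groups. The same arrays were also the extremes for the adventitial fibroblast markers, at 810 and 591, whose median change was 0.06. They were the extremes for the ADAMTS, microfibril partner and elastin-degrading lists as well. Of the valve and chondrogenic markers, Comp at 1.53 and Cilp at 1.33 did not overlap between groups. Prg4 at 0.73, Sox9 at 0.35, Fmod at 0.32 and Cytl1 at -0.04 did overlap, and the 4 other Fmod probe sets were below 0. These markers are named here after their values were seen. The part of fibroblasts and valve cells in the elastic fibre values was not tested.

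The other marker lists had smaller medians than the fibroblast and valve lists, several of them below 0. The largest of these other medians was that of the macrophage markers, at 0.46. The 6 tested smooth muscle markers of 7 were all below 0, 2 of them at an unadjusted p under 0.05 and none passing in limma, with a median of -0.27, and summed to 3019 to 3365 on labelled transgenic and 3261 to 4794 on non-transgenic arrays. The 5 tested adventitial fibroblast markers of 6 had a median of 0.06, the 6 endothelial markers 0.05 and the 5 pericyte markers -0.06, and none of these passed in limma (1 lower pericyte marker and no other at an unadjusted p under 0.05). Macrophage markers, 7 of 7 tested, had 6 changes above 0, all 6 at an unadjusted p under 0.05 and none passing in limma, and a median of 0.46, with sums of 5334 to 6065 on labelled transgenic and 3822 to 4411 on non-transgenic arrays, and their part was not tested. Of the lung, mesothelial, adipocyte and atrial lists, 5 of 6, 5 of 6, 4 of 6 and 3 of 6 markers lay below the filter, among them Sftpc, Scgb1a1, Msln, Upk3b, Adipoq, Sln and Myl7. The 3 tested atrial markers had a median of -0.12 and did not move together. Nppa, which encodes atrial natriuretic peptide, was higher by 2.19 (adjusted p = 0.0150 in limma), a call lost with the fluidics station as a block (0.0706), with high or low Xist as a block (0.0718) and with no filter (0.0625), in a range of adjusted p up to 0.169. Kcnj3, a potassium channel subunit, was at -0.82 without overlap (adjusted p = 0.158 in limma), with 2 other probe sets at -0.94 and -0.86, and Myl4, an atrial myosin light chain, was at -0.12. These 3 genes are named here after their values were seen.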

How the data were processed

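RNA from mouse heart was measured on 6 arrays, 3 labelled transgenic and 3 non-transgenic. The log2 values were deposited by the authors with 1 value per probe set and array, and GCRMA, a background correction and normalization, is the tool that the submitters' processing notes name. Its version is not given in the sources used here, and the values were used as deposited. Other fields, such as the station, came from the deposited instrument records. After leaving out 64 control probe sets, those with a mean above log2 3.29 over the 6 arrays entered a 2-sided moderated test (R 4.3.3; limma 3.58.1, functions lmFit and eBayes), adjusted by Benjamini-Hochberg, with calls at 0.05. The fit was tested on simulated data. The alternatives changed the filter, the normalization, the limma settings, the summary of probe sets per gene, the station, Xist and replicate blocks, and left out each array in turn. With 3 against 3 arrays the smallest exact permutation p is 0.1, so single values were not tested that way. Gene names came from the platform annotation. No genome build comes with the values, so no coordinates are given. All probe sets of the member genes were named. For the pathway lists the text names up to 4 passing genes or, where none passed, the pair that changed most in size, and also the 5 genes most alike in pattern. The member genes and lists were chosen with earlier results of these data known. Between any pair of arrays at most 0.0178% of values were equal.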

Additional observations from a re-analysis of the deposited data

Results flagged for a closer look

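Ltbp2 is given here because its probe set lay below the brightness filter, outside the tested values, and its labelled transgenic values were all above the non-transgenic ones, with a difference in means of 0.68 on the log2 scale. It had no test in the filtered data, and its adjusted p in limma with no filter was 0.348.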

How the results depend on the processing

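No elastic fibre probe set passed under any of 20 alternatives in limma, with 1 to 7 at an unadjusted p under 0.05 and a lowest adjusted p of 0.0534. Of 209 recomputed changes 205 kept their direction. The exceptions were at Eln, with -0.048 for high or low Xist as a block, -0.040 for the Xist level as a term, -0.044 without non-transgenic array 1 and -0.036 without non-transgenic array 3, in a range up to 0.22 with single arrays left out. The median change was 0.49 for probe sets with a mean above log2 5, 0.17 with no filter, and 0.21 to 0.48 with single arrays left out. Over all tested probe sets limma's 49 calls became 143 with a mean above log2 5, 15 with no filter, 108 with trend, 2 with the station as a block, and 0 with arrays of station 2 alone, high or low Xist as a block or the Xist level as a term (3771, 3076 and 3126 at an unadjusted p under 0.05), and 0 to 75 with single arrays left out (0 without labelled transgenic array 2 or 3 or non-transgenic array 2 or 3, 5 without non-transgenic array 1 and 75 without labelled transgenic array 1, with 2532 to 3455 unadjusted). With the replicate block the count was 0 (3324 unadjusted). Same-numbered arrays did not deviate together, with correlations of -0.08, -0.17 and -0.01. They also differed in Xist, so these correlations cannot decide whether same-numbered arrays were paired. The median with the replicate block was 0.35. The causes were not tested.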
